A study of Mus musculus with 6 samples.

Results

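The genes described are 10 genes of the lipoxygenase and prostaglandin pathways, taken by symbol from a deposited table of 54532 genes. They are Alox15, Alox5, Alox5ap, Ltc4s, Lta4h, Ptgs1, Ptgs2, Ptges, Ptgis and Hpgds, and each matched 1 row. They were followed in F4/80-positive macrophages from the peritoneal cavity of mice kept for 12 months on a C57BL/6 background. All mice carried the p16-Cre and Rosa26-mtmg alleles, so that membrane tdTomato gives way to EGFP in cells in which Cre has acted, and in their descendants. Macrophages were enriched on magnetic beads and sorted by colour with a flow cytometer, with 3 RNA libraries of EGFP cells (p16High) and 3 of tdTomato cells (p16Low). Both fractions carry both alleles, the labels name no other treatment, and the reporter records past Cre activity, not the present level of p16. Whether each library is a separate animal or pool is not stated in the labels, so p-values measure the spread between these libraries, which may be technical. Library totals, worked back from the deposited values and close to the sum of reads counted to genes, were 16516853 to 20874086 reads.

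Arachidonic acid, released from membrane phospholipids, feeds several enzyme branches. Lipoxygenases add oxygen to it to give hydroperoxides and, through Alox5 and its membrane partner Alox5ap, leukotriene A4, which Lta4h turns into leukotriene B4 and Ltc4s into leukotriene C4. The cyclooxygenases Ptgs1 and Ptgs2 give prostaglandin H2, which terminal synthases turn into prostaglandin E2 (Ptges), prostacyclin (Ptgis) or prostaglandin D2 (Hpgds). Resident peritoneal macrophages of the mouse are a classic source of these lipids and are known for a high level of Alox15.

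The pathway was expressed strongly and unevenly, and none of its genes described here passed the test between fractions. Alox15 alone took 0.690% to 1.11% of these totals. It was the 11th gene of the table by mean FPKM and the 6th by reads. FPKM is a read count divided by the length of the gene and by the library total. By mean FPKM over the 6 libraries the order was Alox15 (6976), Alox5ap (1155), Ptgis (569), Ltc4s (433), Ptgs1 (369.6), Alox5 (191), Lta4h (73.8), Ptges (29.7), Hpgds (0.496) and Ptgs2 (0.0409). The ranges over libraries of Ptgis and Ltc4s, of Ltc4s and Ptgs1, and of Hpgds and Ptgs2 overlapped. Within a library Ptgis stood above Ltc4s in 6 of 6 and Hpgds above Ptgs2 in 6 of 6, while Ltc4s stood above Ptgs1 in 4 of 6. All other neighbours in this order had ranges that did not overlap. The authors' gene lengths equal the mean length of the annotated transcripts. Recomputed per kilobase of the longest annotated transcript, the first 8 genes kept the same order, with a level of 4112 for Alox15 and 10.9 for Ptges.

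**Figure D1:**
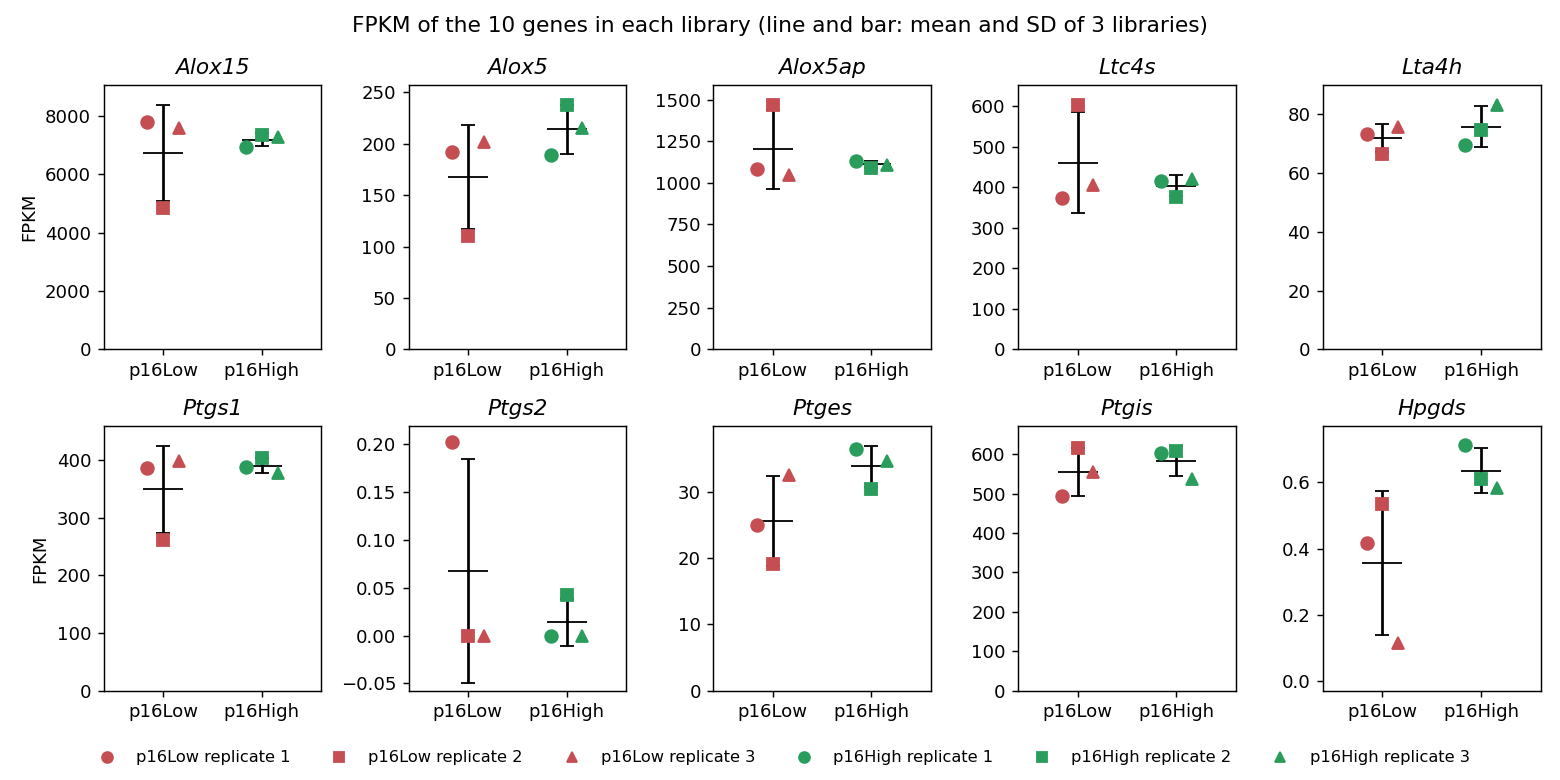
FPKM of each of the 10 genes (y axis, 1 linear scale per panel) in the 3 p16Low and 3 p16High libraries (x axis), with points for single libraries and a line and bar for the mean and SD of 3 libraries. Alox15 lay between 6955 and 7799 FPKM in 5 libraries and at 4856 FPKM in p16Low replicate 2, and Ptgs2 had no read in 4 of the 6 libraries.

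Of the 10 genes, 8 reached 1 FPKM in at least 3 libraries and were tested, and 0 of the 8 passed between p16High and p16Low (limma on log2(FPKM + 1), Benjamini-Hochberg adjusted p under 0.05). Over all 10895 genes tested, 0.89% passed. None of the 8 had an unadjusted p under 0.05 either, against 7.22% of all tested genes, and limma-voom on reads worked back from the FPKM values also called 0 of them, against 0.808% of all tested genes, and gave 0 an unadjusted p under 0.05, against 6.87%. The log2 fold changes ran from -0.16 for Ltc4s to 0.42 for Ptges, with a median of 0.099 against 0.051 over all tested genes. The groups overlapped for all 8, where 15.9% of all tested genes had no overlap. Ptgs2 and Hpgds fell below the filter. A level in sorted cells in bulk cannot tell fewer expressing cells from less RNA per cell.

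1 library stood apart from the other 5 and touches every value below. p16Low replicate 2 lay at 48.9 on the first principal component of the tested genes, while the other 5 lay between -15.9 and -4.70. For each of the 8 tested genes it was the lowest library (5 genes) or the highest (3 genes). Of all tested genes 46.5% were lowest and 24.4% highest in that library, 70.9% together. The results of the 8 genes are therefore given with and without it. Without it, 0 of the 8 genes passed, against 2.76% of all tested genes, and 0 had an unadjusted p under 0.05, against 12.6%.

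**Figure D2:**
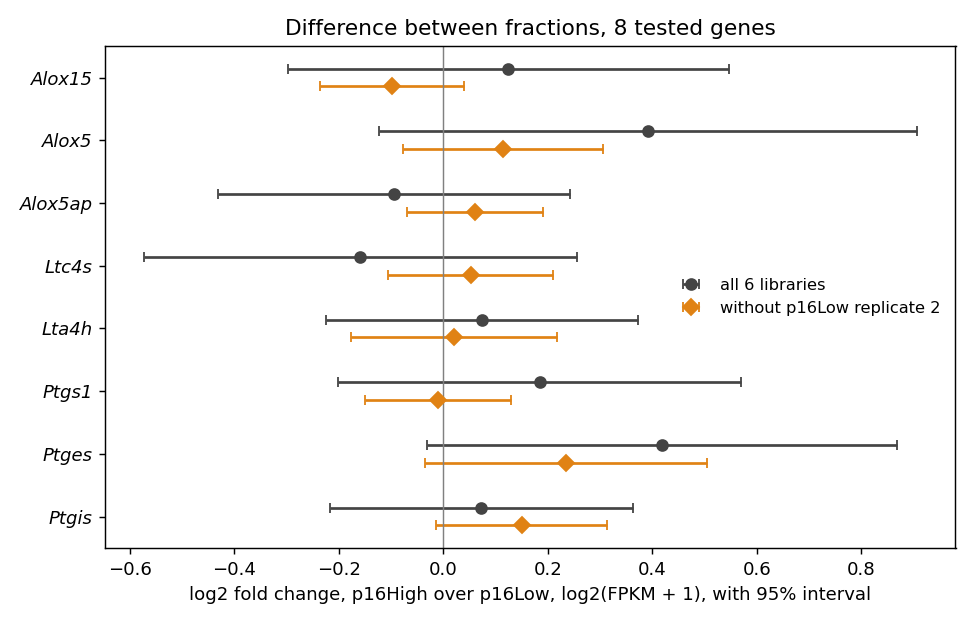
Log2 fold change of p16High over p16Low on log2(FPKM + 1) (x axis) for the 8 tested genes (y axis), with 95% intervals from limma, for all 6 libraries (circles) and without p16Low replicate 2 (diamonds). Every interval includes 0, and the interval of Alox15 narrows from -0.30 to 0.55 with 6 libraries to -0.24 to 0.04 without p16Low replicate 2.

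Alox15 (ENSMUSG00000018924, chromosome 11, 70344152 to 70352031, minus strand, in coordinates that match GRCm38) encodes the leukocyte-type lipoxygenase of mouse macrophages. It stood at 7799, 4856 and 7607 FPKM in p16Low replicates 1, 2 and 3 and at 6955, 7354 and 7286 FPKM in p16High. The p16High libraries lay close together, and the p16Low libraries lay on both sides of them. Between fractions the log2 fold change was 0.12 (95% interval -0.30 to 0.55, SE 0.186, limma adjusted p = 0.845). Without p16Low replicate 2 it was -0.098 (limma adjusted p = 0.594, SE 0.0638), and the 3 p16High libraries then all lay below the other 2 p16Low libraries. In that comparison 29.6% of all tested genes had no overlap.

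Alox15 lies in a stretch of chromosome 11 that holds 5 other lipoxygenase genes. Together these had few reads over all 6 libraries, against 1128385 reads of Alox15. Alox12e, an epidermal lipoxygenase gene that ends 21.5 kb from Alox15 on the same strand, had 20 reads, and the platelet-type gene Alox12 had 3. Further along the chromosome Aloxe3 had 12 reads, Alox8 had 10 and Alox12b had 0. A count of 0 allows up to 3 reads in a library, or 0.144 to 0.182 CPM (reads scaled to a common library total) at these depths, for counting error alone. Eosinophils are another known source of Alox15 and Ltc4s. The eosinophil genes Prg2, Epx and Ear6 had no read in any library, and the 6 eosinophil markers, led by Ccr3 and Il5ra, summed to 0.55 to 0.752 FPKM in p16Low and 0.185 to 0.904 FPKM in p16High.

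In the leukotriene branch, Alox5 (ENSMUSG00000025701, chromosome 6, 116410077 to 116461178, minus strand), which makes leukotriene A4, stood at 192, 110.0 and 202 FPKM in p16Low and at 189, 237 and 215 FPKM in p16High. p16Low replicate 2 was the low library, and the other 5 libraries overlapped between fractions. With 6 libraries the log2 fold change was 0.39 (95% interval -0.12 to 0.91, SE 0.226, limma adjusted p = 0.747) and it was 0.11 (95% interval -0.08 to 0.31, SE 0.0887, limma adjusted p = 0.677) without p16Low replicate 2.

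Alox5ap (ENSMUSG00000060063, chromosome 5, 149264767 to 149288153, plus strand) encodes the membrane protein that presents arachidonate to the Alox5 enzyme. It stood at 1086, 1470 and 1045 FPKM in p16Low and at 1130, 1092 and 1109 FPKM in p16High. The p16High libraries had an SD of 19.2 FPKM around a mean of 1110.3 FPKM, and p16Low replicate 2 was the high library. The ratio of Alox5ap to Alox5 FPKM within a library was 4.60 to 5.96 in 5 libraries and 13.4 in p16Low replicate 2. The log2 fold change of Alox5ap was -0.095 (limma adjusted p = 0.849, SE 0.149). Without p16Low replicate 2 it was 0.060 (limma adjusted p = 0.763, SE 0.0603), and the p16High libraries then all lay above the other 2 p16Low libraries. Of all tested genes 29.6% had no overlap in that comparison.

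Ltc4s (ENSMUSG00000020377, chromosome 11, 50236461 to 50238616, minus strand) encodes leukotriene C4 synthase, which joins glutathione to leukotriene A4. It stood at 373, 604 and 407 FPKM in p16Low and at 416, 376 and 421 FPKM in p16High. p16Low replicate 2 again was the high library. The log2 fold change was -0.16 (limma adjusted p = 0.806, SE 0.182) with 6 libraries and 0.05 (limma adjusted p = 0.847, SE 0.0733) without it. An exon of Ltc4s overlaps Gm26542 on the opposite strand, which stood at 1.71 to 2.99 FPKM, and the labels do not state whether counting used strand.

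Lta4h (ENSMUSG00000015889, chromosome 10, 93453411 to 93484875, plus strand) encodes the hydrolase that makes leukotriene B4. It stood at 73.2, 66.6 and 75.8 FPKM in p16Low and at 69.4, 74.6 and 83.3 FPKM in p16High. These libraries overlapped, and p16Low replicate 2 was the lowest by a small margin. For p16High over p16Low the log2 fold change was 0.07 (95% interval -0.22 to 0.37, SE 0.132, limma adjusted p = 0.869), and without p16Low replicate 2 it was 0.021 (limma adjusted p = 0.967, SE 0.0912). Within a library, Ltc4s stood at 5.03 to 6.00 times the FPKM of Lta4h in 5 libraries and at 9.08 times in p16Low replicate 2.

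Between the cyclooxygenase genes Ptgs1 and Ptgs2, the reads came almost wholly from Ptgs1. Ptgs1 (ENSMUSG00000047250, chromosome 2, 36230426 to 36252272, plus strand), the constitutive cyclooxygenase, stood at 387, 262 and 398 FPKM in p16Low and at 388, 404 and 378 FPKM in p16High. p16Low replicate 2 was the low library, and the other 5 overlapped between fractions. Its log2 fold change was 0.18 (95% interval -0.20 to 0.57, SE 0.170, limma adjusted p = 0.78) with 6 libraries and -0.0096 (95% interval -0.15 to 0.13, SE 0.0647, limma adjusted p = 0.978) without p16Low replicate 2.

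Ptgs2 (ENSMUSG00000032487, chromosome 1, 150100031 to 150108227, plus strand), the inducible cyclooxygenase, had 9, 0 and 0 reads in p16Low and 0, 2 and 0 reads in p16High. Over the 6 libraries that made 11 reads, against 63560 reads of Ptgs1. No difference was detectable at this depth, and no fold is given. Genes that sorting or handling can induce were present in the same libraries. The 11 immediate early genes summed to 858 to 937.5 FPKM in p16Low and 901 to 994 FPKM in p16High, with Dusp1 and Junb the most abundant. A low read count may not always mean a low level in this table, but no other measure of level was at hand. The housekeeping gene Gapdh, chosen after its values were seen, was counted at 462, 546 and 30 reads in p16Low and 35, 33 and 12 reads in p16High. Whether this bears on the count of Ptgs2 was not tested.

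The promoter letters of a few of these genes are shown because the isoenzymes Ptgs1 and Ptgs2 differed widely in level, and because Alox5 and Ltc4s lay on opposite sides of the other libraries in p16Low replicate 2. RefSeq promoter sequences on GRCm38.p6 were found for 7 of the 10 genes, not for Alox15, Alox5ap and Ptgis. Each line gives the 250 bases before the gene's RefSeq start, 5′ to 3′ on its own strand, and capitals mark matches on either strand to the GC box (GGGCGG), the TATA box (TATAAA) or the GATA motif (AGATAA or TGATAA or AGATAG or TGATAG), which do not overlap here. Ptgs1 is at chr2:36230176-36230425 on the plus strand, Ptgs2 at chr1:150099781-150100030 on the plus strand, Alox5 at chr6:116461179-116461428 on the minus strand and Ltc4s at chr11:50238533-50238782 on the minus strand. The RefSeq start of Ltc4s lies inside the gene coordinates given above, so its window partly overlaps them.
Ptgs1: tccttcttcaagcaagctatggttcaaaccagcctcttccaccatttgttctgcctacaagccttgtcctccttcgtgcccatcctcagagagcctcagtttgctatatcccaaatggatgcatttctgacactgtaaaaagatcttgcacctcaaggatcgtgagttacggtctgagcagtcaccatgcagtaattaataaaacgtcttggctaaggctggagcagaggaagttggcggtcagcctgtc
Ptgs2: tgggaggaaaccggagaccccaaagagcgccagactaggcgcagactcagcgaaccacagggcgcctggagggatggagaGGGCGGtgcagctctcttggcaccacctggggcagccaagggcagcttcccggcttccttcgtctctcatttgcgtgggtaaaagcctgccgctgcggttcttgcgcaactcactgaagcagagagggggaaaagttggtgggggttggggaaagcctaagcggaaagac
Alox5: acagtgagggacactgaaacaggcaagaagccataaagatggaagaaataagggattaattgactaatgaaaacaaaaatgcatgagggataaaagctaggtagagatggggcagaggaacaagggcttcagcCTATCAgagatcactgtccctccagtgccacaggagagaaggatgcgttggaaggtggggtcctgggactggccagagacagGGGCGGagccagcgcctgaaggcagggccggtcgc
Ltc4s: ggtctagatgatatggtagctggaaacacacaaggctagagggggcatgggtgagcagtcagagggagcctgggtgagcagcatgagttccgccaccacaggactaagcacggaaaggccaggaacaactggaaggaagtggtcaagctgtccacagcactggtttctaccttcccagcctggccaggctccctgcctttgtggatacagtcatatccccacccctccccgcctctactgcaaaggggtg

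Ptgs2 held 1 GC box, Alox5 held 1 GC box and 1 GATA motif, and Ptgs1 and Ltc4s held no match to these letters in this window. Of 32851 RefSeq promoters cut to the same length, 32.74% held a GC box, 12.37% a TATA box and 26.54% a GATA motif. Matches are given as a description of the sequences, and no binding was measured.

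Among the terminal prostaglandin synthases, Ptgis was the most abundant. Ptgis (ENSMUSG00000017969, chromosome 2, 167191805 to 167240604, minus strand), which makes prostacyclin, stood at 494, 616 and 555 FPKM in p16Low and at 602, 608 and 538 FPKM in p16High. The fractions overlapped, and p16Low replicate 2 was the highest library by a small margin. The log2 fold change was 0.07 (95% interval -0.22 to 0.36, SE 0.128, limma adjusted p = 0.869) with 6 libraries and 0.15 (95% interval -0.01 to 0.31, SE 0.0759, limma adjusted p = 0.452) without p16Low replicate 2. Prostacyclin synthase is also known from stromal and vascular cells. The mesothelial and stromal genes Msln, Upk3b, Wt1, Col1a2 and Col3a1 had no read in any library, and the 8 genes of that list, led by Krt19 and Dcn, summed to at most 0.123 FPKM.

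Ptges (ENSMUSG00000050737, chromosome 2, 30889471 to 30929863, minus strand), the inducible microsomal prostaglandin E synthase, stood at 25.01, 19.1 and 32.6 FPKM in p16Low and at 36.5, 30.5 and 34.6 FPKM in p16High. It had the largest log2 fold change of the 8 tested genes, and p16High replicate 2 lay below p16Low replicate 3. Its log2 fold change was 0.42 (95% interval -0.03 to 0.87, SE 0.198, unadjusted p = 0.0645, limma adjusted p = 0.723) with 6 libraries and 0.23 (limma adjusted p = 0.482, SE 0.125) without p16Low replicate 2. Over the 13 alternative settings its adjusted p ran from 0.379 to 0.984.

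Hpgds (ENSMUSG00000029919, chromosome 6, 65117293 to 65144908, minus strand), the prostaglandin D synthase of blood cells, stood at 0.417, 0.535 and 0.115 FPKM in p16Low and at 0.712, 0.610 and 0.583 FPKM in p16High. Behind these values were 20, 29 and 6 reads in p16Low and 35, 31 and 25 reads in p16High. The p16High libraries all lay above the p16Low libraries in FPKM, by a small margin. Of all tested genes 15.9% had no overlap, and the share among genes below the filter, such as Hpgds, was not computed. The exact two-sided permutation test gave p = 0.1, the smallest value that 3 against 3 libraries allow. Any gene without overlap reaches that value, so it adds nothing to the lack of overlap. With no filter on low values limma gave an unadjusted p of 0.0875 and an adjusted p of 0.822. Mast cells are a known source of Hpgds, and mast cell transcripts were counted in the same libraries. Of 9 mast cell markers, Hdc stood at 75.4 FPKM in p16Low and 98.1 FPKM in p16High on average, the other 8, led by Cpa3, summed to 0 to 0.235 FPKM in p16Low and 1.15 to 3.64 FPKM in p16High, and the defining genes Kit, Ms4a2 and Gata2 had no read. Their part in the difference of Hpgds was not tested.

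p16Low replicate 2 moved the members apart from each other. It held Alox5 at 1.88-fold, Ptges at 1.66-fold, Alox15 at 1.52-fold and Ptgs1 at 1.49-fold below the mean of the other 5 libraries. Ltc4s was 1.52-fold, Alox5ap 1.35-fold and Ptgis 1.10-fold above that mean. On log2(FPKM + 1) the size of its deviation had a median of 0.59 over the 8 members and 0.41 over all tested genes, where the other 5 libraries had medians of 0.12 to 0.17 over all tested genes.

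**Figure D3:**
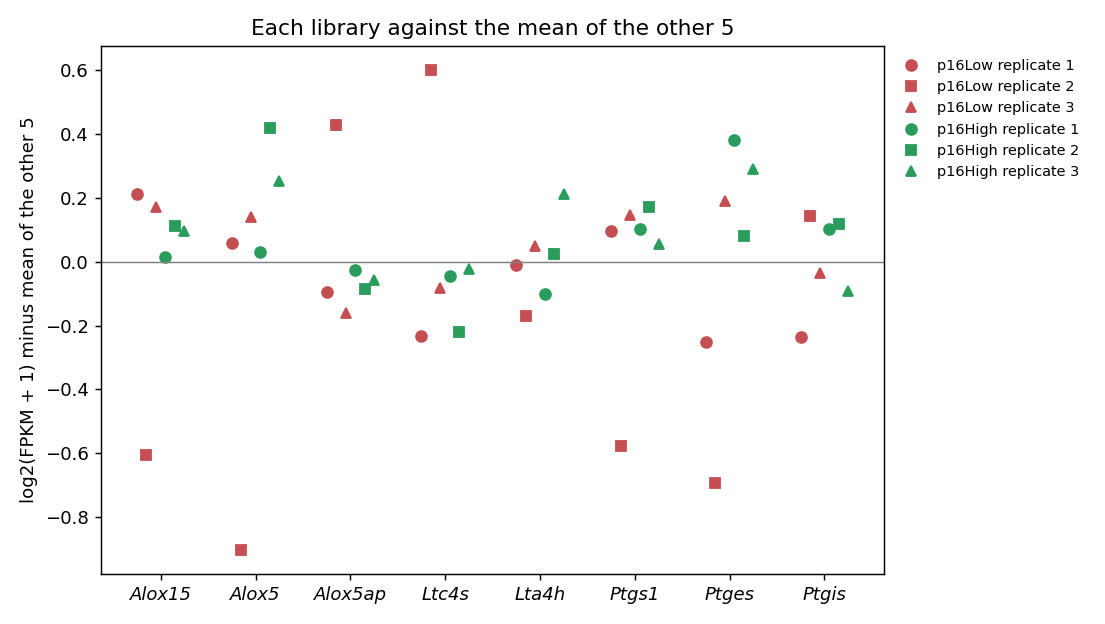
Difference of each library from the mean of the other 5 on log2(FPKM + 1) (y axis) for the 8 tested genes (x axis), with 1 point per library. p16Low replicate 2 (red squares) ranges from -0.90 for Alox5 to 0.60 for Ltc4s, while the other 5 libraries lie between -0.25 and 0.42.

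Ordered by the longest annotated transcript, the 8 members fell on the same 2 sides. The 3 members above the other libraries have the shortest longest-transcripts of the 8, at 716 bases for Ltc4s, 1251 for Alox5ap and 2107 for Ptgis. The 5 members below them have 2409 bases for Alox15, 2867 for Ptgs1, 3225 for Lta4h, 3576 for Alox5 and 3647 for Ptges. By the mean transcript length on which the FPKM values rest, this split did not hold. Ptgis (1472 bases) was then longer than Alox15 (1420), Ptges (1334) and Lta4h (1142). Over 10892 tested genes with an annotated length, the deviation of p16Low replicate 2 had a median of 0.51 for genes under 1000 bases and -0.35 for genes of 4000 bases or more. Across genes, which are not independent replicates, Spearman's rho with length was -0.415 in that library and 0.059 to 0.248 in the other 5. Whether transcript length or RNA quality accounts for that library's values was not tested.

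By the Pearson correlation of log2(FPKM + 1) over the 6 libraries, used as a measure of likeness, the genes most like Alox5 were Tnip2 (0.998), Mocs1 (0.997) and Bhlhe40 (0.996). Those most like Ptges were Ppp1r12c (0.993), Gm15931 (0.987) and Poli (0.987). For Alox5, 43 of 10894 genes reached 0.99, and the 3 named genes were, like Alox5, lowest in p16Low replicate 2. Over the other 5 libraries the correlation was 0.966 to 0.976 for the genes named with Alox5 and 0.959 to 0.982 for those named with Ptges. These genes were picked by their correlation over all 6 libraries, so the values over 5 are not a separate check. Tnip2 stood at 13.6 FPKM in p16Low replicate 2 and at 20.9 to 24.8 FPKM in the other 5.

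The rest of the pathway was read from a list of 69 symbols that covers phospholipases, other synthases, clearance and receptors, of which 68 were in the table, 37 were tested and 12 had no read in any library. Of the 37, 0 passed in either direction by limma, beside 0.89% of all tested genes, and 4 had an unadjusted p under 0.05, beside 7.22%. With limma-voom these counts were again 0 and 4, beside 0.808% and 6.87%. Their median log2 fold change was -0.031, with 17 positive and 20 negative (11 and 26 with median-of-ratios scaling, 13 and 24 with quantile normalization). The groups did not overlap for 9 of the 37, or 24.3%, beside 15.9% of all tested genes, 5 of them higher and 4 lower in p16High. Without p16Low replicate 2, 1 of the 37 passed, Cbr2, beside 2.76% of all tested genes, and 9 had an unadjusted p under 0.05, beside 12.6%.

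**Figure D4:**
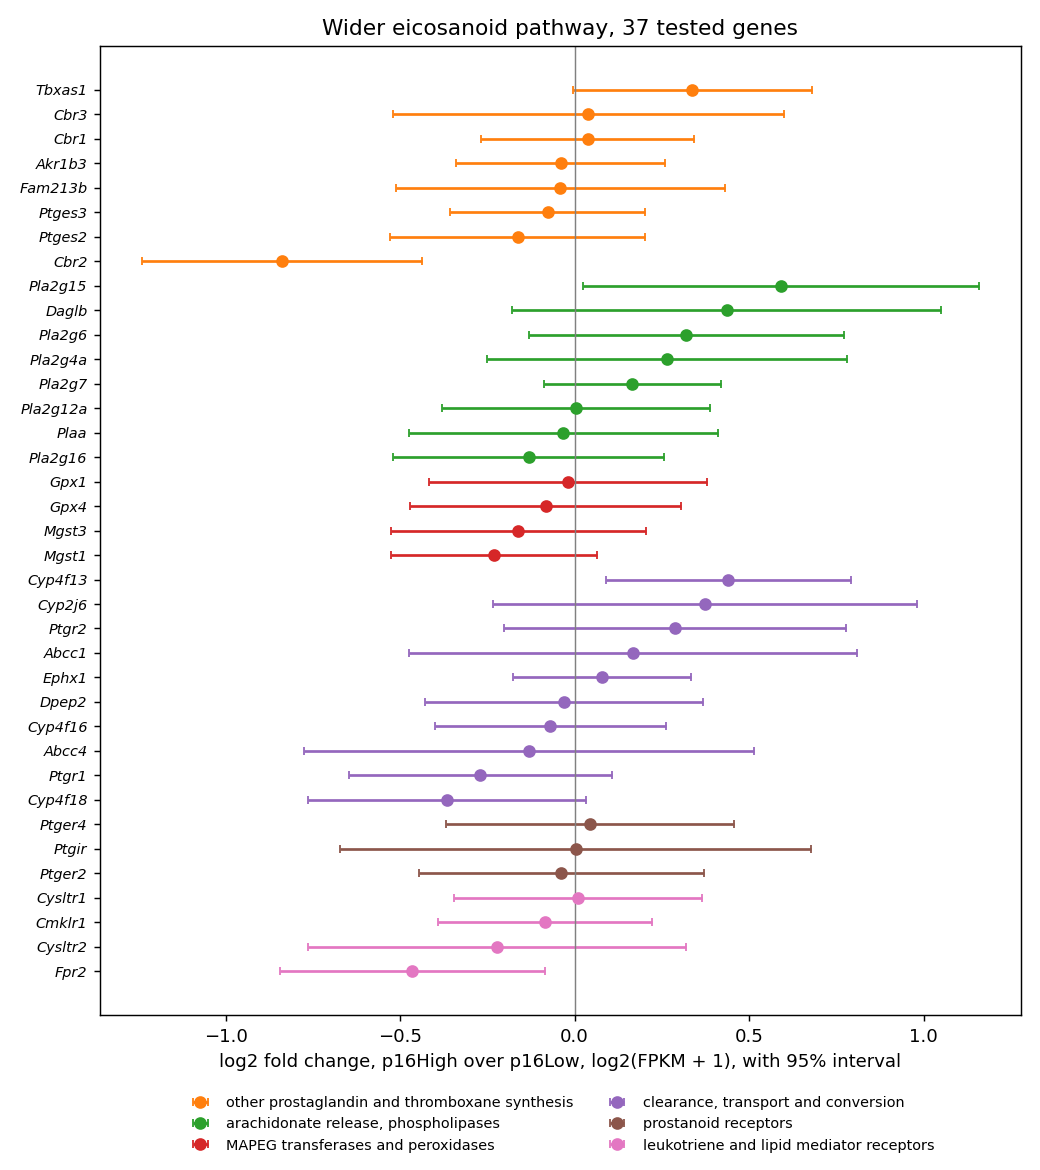
Log2 fold change of p16High over p16Low on log2(FPKM + 1) with 95% intervals from limma (x axis) for the 37 tested genes of the wider pathway list (y axis), coloured by sub-list. Cbr2 lies lowest at -0.84 and Pla2g15 highest at 0.59, and the intervals of 33 genes include 0.

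Cbr2, which encodes a carbonyl reductase, stood at 83.0, 116 and 77.3 FPKM in p16Low and at 46.0, 56.1 and 49.1 FPKM in p16High. All 3 p16High libraries lay below all 3 p16Low libraries, with a ratio of means of 1.83, or 1.59 without p16Low replicate 2. The log2 fold change was -0.84 (limma adjusted p = 0.0853, SE 0.177) and missed the threshold, while without p16Low replicate 2 it was -0.66 (limma adjusted p = 0.00166, SE 0.0978) and passed. Over the 13 alternatives its adjusted p ran from 0.00166 to 0.417, and in the other 12 it did not pass.

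Among the enzymes that release or remodel arachidonate, Pla2g7, which encodes the lipoprotein-associated phospholipase that cleaves platelet-activating factor, was the most abundant with a mean of 624 ± 19.6 in p16High against 556 ± 34.2 FPKM in p16Low (SD, n = 3; limma adjusted p = 0.751). Pla2g4a, the cytosolic phospholipase that releases arachidonate, averaged 44.1 ± 4.75 in p16High against 37.6 ± 11.2 FPKM in p16Low (SD, n = 3). Pla2g15, the lysosomal phospholipase, stood at 134, 72.2 and 151 FPKM in p16Low and at 167, 186 and 163 FPKM in p16High (log2 fold change 0.59, adjusted p = 0.675 by limma). Its groups did not overlap, and p16Low replicate 2 was again the lowest library. Without that library its log2 fold change was 0.27 (unadjusted p = 0.0063, limma adjusted p = 0.135).

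Beside Ptgis and Ptges, the most abundant terminal enzymes were Tbxas1, Fam213b and Akr1b3. Tbxas1, the thromboxane synthase, stood at 122, 88.1 and 119 FPKM in p16Low and at 138, 133 and 141 FPKM in p16High. These groups did not overlap, and the log2 fold change of 0.34 did not pass (limma adjusted p = 0.701, SE 0.151). Without p16Low replicate 2 it was 0.19 (limma adjusted p = 0.278). Platelets are a known source of thromboxane synthase and of Ptgs1. Of 6 platelet markers, Pf4, which macrophages also express, stood at 4635 to 10522 FPKM. The 6 together summed to 6682 to 10525 FPKM in p16Low and 4637 to 5827 FPKM in p16High. The other 5, led by Itgb3, summed to 2.95 to 3.25 FPKM in p16Low and 2.26 to 2.85 FPKM in p16High. Their part in the level of Tbxas1 was not tested. Fam213b and Akr1b3, both linked to prostaglandin F synthesis, had adjusted p values of 0.956 and 0.934 (limma), and Ptgds, the other prostaglandin D synthase, had no read.

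Of the glutathione enzymes, Gpx1, a peroxidase that reduces lipid hydroperoxides, averaged 7091 ± 370.1 in p16High against 7319 ± 1839 FPKM in p16Low, and Gpx4, which reduces hydroperoxides of phospholipids, averaged 439 ± 39.1 and 472 ± 111 FPKM in that order (SD, n = 3). Mgst1, a microsomal relative of Ltc4s, averaged 506 ± 17.1 in p16High against 597 ± 81.8 FPKM in p16Low without overlap (log2 fold change -0.23, adjusted p = 0.747 by limma, and -0.12 with adjusted p = 0.479 without p16Low replicate 2). For clearance, Ephx1, an epoxide hydrolase, averaged 128 ± 1.31 in p16High against 121 ± 2.58 FPKM in p16Low without overlap (log2 fold change 0.08, adjusted p = 0.839 by limma, and 0.09 without p16Low replicate 2). Ptgr2, a prostaglandin reductase, averaged 28.4 in p16High against 23.8 FPKM in p16Low, and Cyp4f16 averaged 22.5 and 23.7 FPKM in that order. Cyp4f13 differed by 0.44 (limma adjusted p = 0.506, SE 0.155) and Cyp4f18 by -0.37 (limma adjusted p = 0.727, SE 0.176) on the log2 scale, both without overlap and both members of a family that hydroxylates leukotrienes and fatty acids. Without p16Low replicate 2 these differences were 0.35 for Cyp4f13 and -0.47 for Cyp4f18 (limma adjusted p = 0.172 and 0.273).

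Few receptors of the pathway passed the filter on low values. Of 9 prostanoid receptors, 3 were tested, Ptger4 and Ptger2 for prostaglandin E2 and Ptgir for prostacyclin. Ptgir stood at 10.8, 4.46 and 11.1 FPKM in p16Low and at 7.86, 7.93 and 8.94 FPKM in p16High, so that p16High lay between the p16Low libraries. Its log2 fold change was 0.003 (limma adjusted p = 0.998, SE 0.297) and without p16Low replicate 2 it was -0.37 (adjusted p = 0.277). Ptger4 averaged 11.3 ± 1.25 in p16High against 11.0 ± 1.93 FPKM in p16Low (SD, n = 3), and Ptger2 averaged 1.40 and 1.47 FPKM in that order. Ptger3, Ptgdr, Ptgdr2 and Ptgfr had no read in any library.

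Of the leukotriene and related receptors, Cysltr1, a receptor of cysteinyl leukotrienes, averaged 17.9 ± 1.20 in p16High against 17.9 ± 2.33 FPKM in p16Low (SD, n = 3). The leukotriene B4 receptor genes Ltb4r1 and Ltb4r2 had 8 and 12 reads over all libraries. Cmklr1, a receptor of chemerin, averaged 67.6 FPKM in p16High and 71.9 in p16Low. Fpr2, a formyl peptide receptor that also binds lipoxin, stood at 12.6, 16.4 and 13.0 FPKM in p16Low and at 9.22, 9.48 and 10.8 FPKM in p16High without overlap (log2 fold change -0.47, SE 0.167, unadjusted p = 0.022, adjusted p = 0.523 by limma). Without p16Low replicate 2 the difference was -0.35 (limma adjusted p = 0.293).

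The sort and the cell type were checked in the same libraries. Cdkn2a, which encodes p16 and Arf, stood at 0.620, 0.933 and 1.71 FPKM in p16Low and at 7.01, 7.84 and 5.48 FPKM in p16High (6.24-fold, adjusted p = 0.0092 by limma). It passed in 10 of the 13 alternatives and missed the threshold with no filter (adjusted p = 0.114), without p16High replicate 1 (0.0698) and without p16High replicate 2 (0.0671), and it passed without p16Low replicate 2 (0.000437). All 5 general macrophage markers and all 10 of resident peritoneal macrophages were detected, with Lyz2, Cd68, Adgre1 and Icam2 the most abundant. The general markers summed to 80789 to 85654 FPKM in p16Low and 76065 to 77435 FPKM in p16High, nearly all of it Lyz2. Without Lyz2 the direction was the opposite, with sums of 1215 to 1402 FPKM in p16Low and 1551 to 1608 FPKM in p16High. Of the 5 log2 fold changes, 3 were positive and 2 negative. The resident markers summed to 7790 to 9107 FPKM in p16Low and 10760 to 11163 FPKM in p16High. Of the 10, 2 passed as higher in p16High (Vsig4 and Cxcl13, by limma), beside 0.89% of all tested genes. In the alternatives 0 to 2 passed, beside 0.0399% to 2.76%. All 10 had a positive log2 fold change with 6 libraries, and without p16Low replicate 2 it was positive for 8 and negative for 2. The 7 genes of small or monocyte-derived macrophages, led by Retnla and Lyz1, summed to 3525 to 5038 FPKM and 2963 to 3707 FPKM. The 9 B-cell genes, led by Igkc and Ighm, summed to 225 to 242 FPKM in p16Low and 137 to 204 FPKM in p16High, and the 6 dendritic cell genes, led by Cd209a and Zbtb46, to 8.30 to 10.3 FPKM and 14.7 to 24.97 FPKM. Without Cd209a the dendritic cell sums overlapped, at 0.731 to 1.12 FPKM in p16Low and 0.865 to 1.88 FPKM in p16High. The neutrophil list rested on S100a8, at 22.3 to 49.9 FPKM, and its other genes, led by Camp, summed to at most 0.523 FPKM. The 7 T and NK genes, led by Cd3g and Cd3d, summed to at most 0.401 FPKM. The part of these cells in the values above was not tested.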

How the data were processed

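Total RNA of sorted peritoneal macrophages was sequenced in 6 libraries, 3 p16High and 3 p16Low, grouped by the labels. The authors deposited 1 table of FPKM values, per the file headers and values. The submitters' processing notes name TopHat2 2.0.12, Bowtie2 2.2.3 and HTSeq 0.6.1. What each did, the genome build and whether counting used strand: not given in the sources used here. GENCODE M21 (GRCm38) held 54494 of the gene IDs, 98.3% of them with the same start and end. Multiplying FPKM by the mean annotated transcript length, cut to a whole number, gave whole reads within 0.001 in every library for 96.2% of the 22566 genes above 0. For the other genes the shortest whole length that did so was used. All 10 genes described gave whole reads at the annotated length. Library totals were worked back from the same values, as 16516853 to 20874086 reads.

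Genes with FPKM of at least 1 in 3 libraries were tested with limma 3.58.1 in R 4.3.3 on log2(FPKM + 1), with group as the 1 term and a trended empirical Bayes fit, and p-values were adjusted over all 10895 genes by Benjamini-Hochberg at 0.05. The pseudocount makes log2 fold changes of low genes too small. A value after ± is an SD over 3 libraries, and SE belongs to the log2 fold change. The fit was run on simulated reads with the same spread in all genes and libraries and no library set apart. That run therefore does not cover a library such as p16Low replicate 2. Alternatives were a block for the replicate number, limma-voom on the reads worked back, quantile normalization, median-of-ratios scaling, a pseudocount of 0.1, a filter by CPM (1 in 3 libraries) or none, and each library left out in turn over the same genes.

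The 10 genes, the wider list and the marker lists were chosen with earlier results of these data known. Named from the wider list were the 3 most abundant of each sub-list and genes with a mean FPKM of at least 1 and no overlap between groups. From each marker list the 2 most abundant genes were to be named. Others are examples. Exons of Alox5ap, Ltc4s, Ptgs1 and Ptgis overlap a gene on the opposite strand, and these partners stood at 2.99 FPKM or less.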

Additional observations from a re-analysis of the deposited data

How the results depend on the processing

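None of the 10 genes passed the threshold under any of the 13 alternatives that tested it, in which 0.0399% to 2.76% of all tested genes passed. The count over all genes was 97, and it was 9 with no filter and 17 to 301 with 1 library left out. For the wider list the count was 0, and 0 to 1 with 1 library left out, the 1 being Cbr2 (log2 fold change -0.66) without p16Low replicate 2. The labels do not say whether the replicate numbers pair the fractions. Deviations of same-numbered libraries from their group means correlated at -0.19, -0.17 and 0.01, where all pairs ran from -0.20 to 0.24. With group means of 3 libraries, 1 of which stood apart, these correlations cannot decide whether the fractions are paired. With the replicate number as a block the count over all genes was 67, and it was 0 for the 10 genes and 0 for the wider list. Signs of small log2 fold changes turned in 15 of 31 named genes, none of which passed. With 1 library left out these ran from -0.098 to 0.244 for Alox15, -0.19 to 0.060 for Alox5ap, -0.30 to 0.052 for Ltc4s, -0.0096 to 0.29 for Ptgs1 and -0.0083 to 0.15 for Ptgis. They ran from -0.097 to 0.057 for Akr1b3, -0.17 to 0.20 for Fam213b, -0.0055 to 0.41 for Pla2g4a, -0.20 to 0.10 for Gpx4, -0.15 to 0.18 for Gpx1, -0.14 to 0.0046 for Cyp4f16, -0.10 to 0.057 for Ptger2, -0.093 to 0.13 for Ptger4, -0.37 to 0.20 for Ptgir and -0.089 to 0.091 for Cysltr1. With quantile normalization Gpx4 was at 0.0057, Gpx1 at 0.15, Ptger4 at -0.0016, Ptgir at -0.045 and Cysltr1 at -0.062. With median-of-ratios scaling Ptger4 was at -0.0054, Ptgir at -0.043 and Cysltr1 at -0.044. The cause of these turns was not tested. For Ptgs2 and Hpgds the depth limits what can be seen.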

Other observations

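Among the 31 genes of the wider list below the filter, 12 of which had no read, 2 had no overlap between fractions. Both were chosen after their values were seen. The share of all genes below the filter with no overlap was not computed, while it was 15.9% of all tested genes. Hpgd, which encodes the dehydrogenase that inactivates prostaglandin E2, had 9, 27 and 48 reads in p16Low and 1, 4 and 6 reads in p16High, or 1.41 against 0.20 CPM over the pooled reads. With no filter limma gave an unadjusted p of 0.0232 and an adjusted p of 0.704. Akr1c18, a hydroxysteroid dehydrogenase of the aldo-keto reductase family, had 53, 20 and 28 reads in p16Low and none in p16High, which is at least 31.1-fold lower in p16High against a floor of 3 reads over the group (unadjusted p = 0.0012, adjusted p = 0.201 by limma with no filter). Both genes missed the threshold.

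The ratio of Alox15 to Alox5 FPKM within a library, also chosen after its values were seen, was 40.5, 44.1 and 37.7 in p16Low and 36.7, 31.0 and 33.8 in p16High. The p16Low libraries lay above the p16High libraries, p16Low replicate 2 included, and this ratio was not tested. Other ratios were formed too. Those of Alox5ap to Alox5, Ltc4s to Lta4h, Ptgis to Ptges and Ptgis to Tbxas1 overlapped between fractions. The share of gene ratios with no overlap was not computed, while 15.9% of all tested genes had no overlap.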
